A study of Mastomys natalensis with 3 samples.

Results

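The Bcl2 family and the caspases are taken here as 9 genes: Bcl2, Bcl2l1, Mcl1, Bax, Bad, Fas, Casp2, Casp6 and Casp1. Their probe sets were those for which the platform annotation gave only a member's symbol, 19 of the 8799 on the array. Of these, 18 were rat probe sets for 7 genes: 3 for Bcl2, 4 for Bcl2l1, 2 for Bad, 1 for Fas, 3 for Casp2, 2 for Casp6 and 3 for Casp1. The remaining probe set was a mouse Fas control that the manufacturer places on the array. No probe set carried the symbol Mcl1, which is not analysed here. Bax had no probe set of its own either, because all 3 that list it also list LOC681314, and their signal cannot be given to 1 of the 2.

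The Bcl2 family decides whether a cell opens the outer membrane of its mitochondria, the step that releases cytochrome c and starts the intrinsic route of apoptosis. Bcl2, Bcl2l1 (which encodes Bcl-xL) and Mcl1 hold the pore-formers in check, Bax builds the pore, and Bad, a protein with only the BH3 domain of the family, binds the survival proteins and so releases their partners. Caspases are the cysteine proteases that carry out the signal: Casp2 acts as an initiator, Casp6 as an executioner, and Casp1 mainly matures the cytokines of inflammation. Fas is the cell-surface death receptor that opens the extrinsic route. In the acid-secreting mucosa of the stomach, gastrin is known as the trophic signal for enterochromaffin-like (ECL) cells, the endocrine cells that store histamine.

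The arrays came from Mastomys natalensis, an African rodent that develops gastric carcinoids, and held RNA from preparations of the gastric mucosa enriched in ECL cells. There were 3 groups with 1 array each: animals with a gastric ECL cell carcinoid that had arisen spontaneously, animals given loxtidine for 16 weeks, and animals given loxtidine for 8 weeks. Loxtidine blocks the histamine receptor of parietal cells, which lowers acid and is known to raise gastrin. No strain, age, dose, number of animals or untreated array was given in the sources used here, and the source field named ECL cells for the 8-week sample but gastric mucosa for the others. With 1 array per group there was no replicate, so differences carry neither a standard error nor a p-value and describe these 3 arrays only. In such mixed preparations, fewer cells of a type and less RNA per cell cannot be told apart.

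The deposited intensities had medians of 13.8 (carcinoid), 13.1 (16 weeks) and 10.1 (8 weeks), and were quantile-normalized before comparison. A floor was set at 12.4, the median of all normalized non-control values pooled. A fold was computed only where both arrays reached it, and where 1 array did, the fold is a lower bound. By name alone, 38 control probe sets were taken as having no target in this RNA, and are called no-target controls here. Whether any of them binds Mastomys RNA, in particular controls made from mouse genes such as Fas, was not tested. Of the 38, 9, 9 and 8 reached the floor on the carcinoid, 16-week and 8-week arrays. The highest of them, AFFX-BioDn-5_st on every array, read 47.97, 29.1 and 44.8 in that order. Values over the floor, up to these highest readings, were therefore within the range of these controls on their own array. The ratio of 3′ to 5′ signal for GAPDH was 2.31 (carcinoid), 1.43 (16 weeks) and 8.95 (8 weeks). For beta-actin it was 11.7, 6.71 and 16.05 in that order. Of 16 ECL and neuroendocrine markers, 14 had a probe set, and 9, 10 and 9 of those reached the floor on the carcinoid, 16-week and 8-week arrays. Ddc, Hdc, Scg3 and Slc18a1 stayed under it on every array, Hdc being the enzyme that makes histamine and so a defining marker of the labelled cell.

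Probe sets of the Bcl2 family and the caspases reached the floor at shares close to those of the whole array, and none was bright on every array. Of the 54 normalized values of the 18 rat probe sets, 25 reached the floor and 29 did not, and they ran between 1.27 and 62.5. The floor was reached on all 3 arrays by 5 probe sets (27.8%), on 2 arrays by 2 (11.1%), on 1 array by 6 (33.3%) and on none by 5 (27.8%). The same shares over the 8740 non-control probe sets were 30.5%, 18.4%, 21.9% and 29.2%, and over the 38 no-target controls they were 5.26%, 10.5%, 31.6% and 52.6%. The probe sets measured on every array were 1 for Bcl2, 2 for Bcl2l1, 1 for Casp2 and 1 for Casp1. No member probe set reached the 75th percentile of the array signal, 30.0, on all 3 arrays, against 14.6% of all non-control probe sets, while 7 (38.9%) reached it on some array, against 36.9% of all. The median member value was 7.32 (carcinoid), 19.4 (16 weeks) and 9.8 (8 weeks), against 12.4 over all non-control probe sets on each array. Values above every no-target control of the same array were found for 1 of 18 probe sets on the carcinoid array (14.1% of all non-control probe sets), 4 of 18 on the 16-week array (25.9%) and 1 of 18 on the 8-week array (15.4%). These were the Casp2 probe set U77933_at on the carcinoid array, U34963_s_at of Bcl2l1 on the 8-week array, and AF003523_s_at (Bad), S78284_s_at (Bcl2l1), S79676_s_at (Casp1) and U77933_at on the 16-week array.

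**Figure D1:**
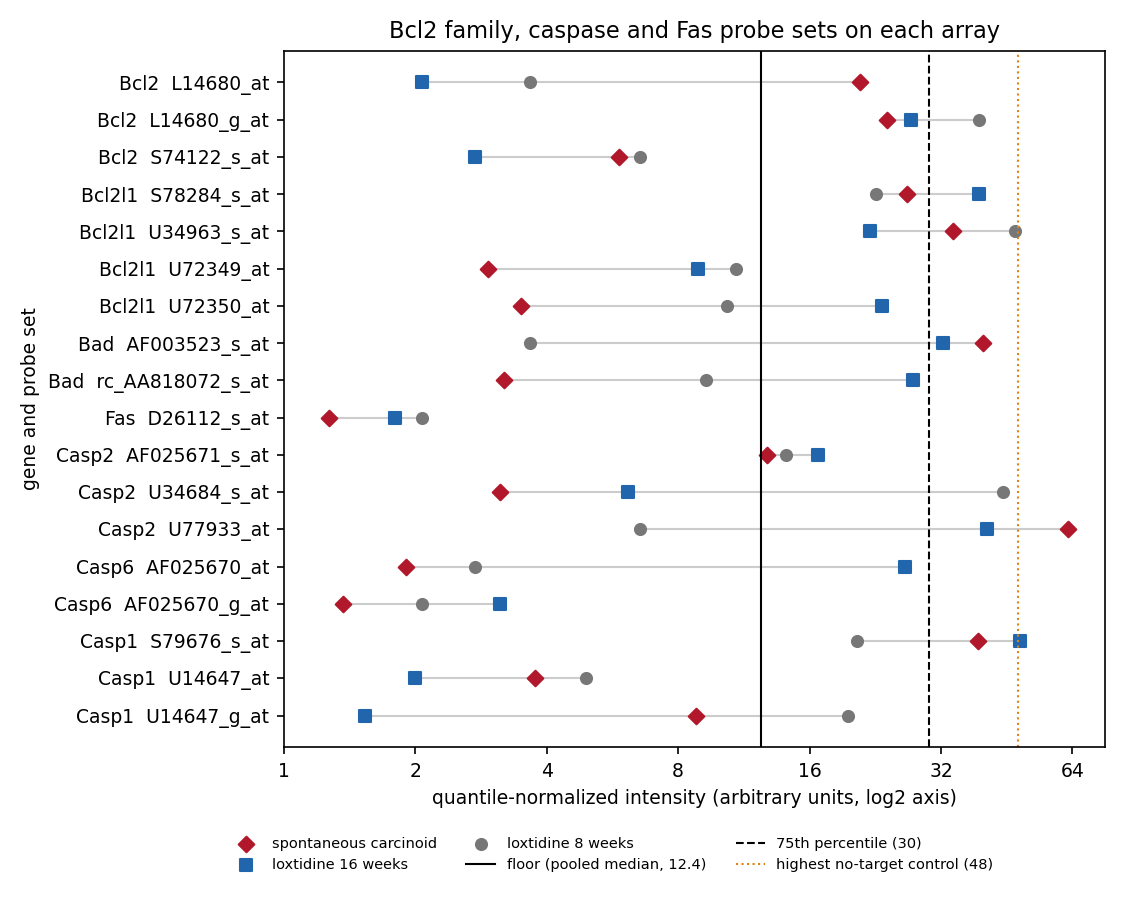
Quantile-normalized intensity (arbitrary units, log2 axis) of the 18 rat probe sets on the carcinoid array (diamonds), the 16-week array (squares) and the 8-week array (circles), with 1 array per group and no error bars. Of the 54 points, 29 lie left of the floor of 12.4 (solid line), and 2 lie right of 47.97, the highest no-target control of any array (dotted line).

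**Figure D2:**
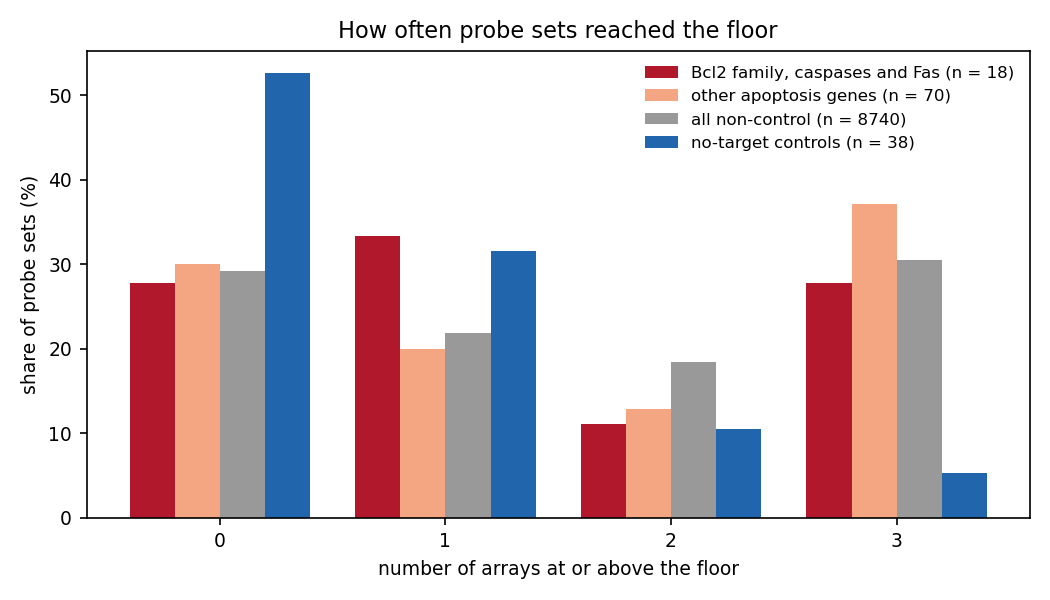
Share of probe sets (%) that reached the floor on 0, 1, 2 or 3 arrays, for the 18 member probe sets, 70 probe sets of other apoptosis genes, all 8740 non-control probe sets and 38 no-target controls. The no-target controls were chosen by name, and their binding to Mastomys RNA was not tested. At 27.8%, the members' share on all 3 arrays lies near the 30.5% of all probe sets, whereas the controls stand at 5.26%.

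Among the survival genes, Bcl2 was measured on every array by a single probe set. L14680_g_at read 24.1 (carcinoid), 27.3 (16 weeks) and 39.05 (8 weeks). All 3 values lay under the highest no-target control of their own array. The log2 difference was -0.70 for carcinoid against 8 weeks, -0.18 for carcinoid against 16 weeks and -0.52 for 16 against 8 weeks, in each case under 2-fold. As deposited, the 3 values were 27.0, 29.2 and 30.6, in the same order but closer together, with carcinoid 1.13-fold lower than 8 weeks. The companion probe set L14680_at, made from the same sequence entry, read 20.9 (carcinoid), 2.07 (16 weeks) and 3.67 (8 weeks). Its carcinoid value was thus at least 1.68-fold above that of either other array, a direction opposite to that of L14680_g_at. S74122_s_at, the last Bcl2 probe set, was under the floor throughout, at 5.87, 2.73 and 6.53.

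Bcl2l1, the gene of Bcl-xL, was measured on all arrays by a pair of probe sets that ran in opposite directions. U34963_s_at read 34.1 (carcinoid), 22.0 (16 weeks) and 47.3 (8 weeks), which made it 2.15-fold lower at 16 weeks than at 8 weeks. S78284_s_at read 26.7 (carcinoid), 39.1 (16 weeks) and 22.8 (8 weeks), or 1.72-fold higher at 16 weeks than at 8 weeks. The 16-week array was therefore the lowest of the 3 by the first probe set and the highest by the second. As deposited these differences were 1.58-fold lower and 2.23-fold higher. The probe set that passed 2-fold thus differed between the scalings, and with the floor at 30.0 neither passed it. The carcinoid array lay between the loxtidine arrays on both. Carcinoid against 8 weeks gave log2 differences of -0.47 (U34963_s_at) and 0.23 (S78284_s_at), and carcinoid against 16 weeks gave 0.63 and -0.55. As deposited, carcinoid against 8 weeks was positive on both, at 0.08 and 0.68. U72350_at reached the floor at 16 weeks only, with 3.5 (carcinoid), 23.4 (16 weeks) and 10.3 (8 weeks), and U72349_at reached it nowhere (2.93, 8.9 and 10.9). The 16-week value of U72350_at was at least 1.89-fold above that of either other array, and at least 2.04-fold as deposited. Only U34963_s_at at 8 weeks and S78284_s_at at 16 weeks lay above the highest no-target control of their own array. All other Bcl2l1 values lay under it.

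Bad, the BH3-only antagonist of Bcl2 and Bcl-xL, was higher at 16 weeks than at 8 weeks on both of its probe sets. AF003523_s_at read 39.9 (carcinoid), 32.3 (16 weeks) and 3.67 (8 weeks). It was at least 3.22-fold higher in the carcinoid and at least 2.61-fold higher at 16 weeks than at 8 weeks, while carcinoid and 16 weeks differed by 1.24-fold. The 8-week array alone was low. The second Bad probe set, rc_AA818072_s_at, read 3.2 (carcinoid), 27.6 (16 weeks) and 9.27 (8 weeks). It was at least 2.23-fold higher at 16 weeks than at 8 weeks, but also at least 2.23-fold lower in the carcinoid than at 16 weeks. The 2 probe sets thus placed the carcinoid array on opposite sides of the floor. The carcinoid value of AF003523_s_at and the 16-week value of rc_AA818072_s_at lay under the highest no-target control of their own array. With the floor at 30.0 the first bound shrank to log2 differences of 0.41 for carcinoid against 8 weeks and 0.11 for 16 against 8 weeks, and the second probe set was under it on every array.

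The 3 probe sets shared by Bax and LOC681314 were kept out of all counts. U59184_at read 246 (carcinoid), 206 (16 weeks) and 283 (8 weeks), above every no-target control of each array, and its log2 differences were -0.20 for carcinoid against 8 weeks, 0.26 for carcinoid against 16 weeks and -0.46 for 16 against 8 weeks. As deposited, the differences against 8 weeks had the other sign, at 0.77 for carcinoid and 0.26 for 16 weeks. S76511_s_at read 21.5, 29.6 and 3.13 in the same order of arrays, and U49729_at read 37.3, 14.1 and 2.07. Both were under the floor at 8 weeks and above it on the other arrays, and U49729_at was 2.65-fold higher in the carcinoid than at 16 weeks. Of the 3, only U59184_at reached the floor on every array.

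Fas, the death receptor, gave no signal above the floor. D26112_s_at read 1.27 (carcinoid), 1.8 (16 weeks) and 2.07 (8 weeks), and the mouse Fas control read 5.53, 4.8 and 3.97 in that order. A level of Fas under the floor was not detectable with these probes. Among the wider set, Faslg, its ligand, read 3.77 (carcinoid), 8.23 (16 weeks) and 32.2 (8 weeks). Faslg was at least 2.6-fold lower on the carcinoid array, and on the 16-week array, than on the 8-week array. Its 8-week value lay under the highest no-target control of that array.

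Casp2, the initiator caspase, had the largest bounds among the members against 8 weeks, and they pointed both ways. U77933_at read 62.5 (carcinoid), 40.9 (16 weeks) and 6.53 (8 weeks), which put it at least 5.04-fold higher in the carcinoid and at least 3.3-fold higher at 16 weeks than at 8 weeks. U34684_s_at read 3.13 (carcinoid), 6.13 (16 weeks) and 44.5 (8 weeks), and was at least 3.59-fold lower in the carcinoid, and at 16 weeks, than at 8 weeks. The 8-week array was the lowest by the first and the highest by the second. The 8-week value of U34684_s_at lay under the highest no-target control of that array. AF025671_s_at, measured on all arrays, differed little, at 12.8, 16.8 and 14.1 for carcinoid, 16 weeks and 8 weeks, with log2 differences of at most 0.39 in size, and that of carcinoid against 8 weeks, -0.14, became a bound of 0.23 as deposited. Carcinoid and 16 weeks differed by 1.53-fold on U77933_at, the carcinoid being higher.

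Casp6, the executioner caspase, reached the floor once. AF025670_at read 1.9 (carcinoid), 26.5 (16 weeks) and 2.73 (8 weeks), and was at least 2.14-fold lower in the carcinoid than at 16 weeks and at least 2.14-fold higher at 16 weeks than at 8 weeks. AF025670_g_at, made from the same sequence entry, stayed under the floor at 1.37, 3.13 and 2.07. Its 16-week value was also the highest of its own 3, and all 3 were under the floor. The 16-week value of AF025670_at lay under the highest no-target control of that array.

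Casp1, the inflammatory caspase, gave the only measured difference among the members that passed 2-fold both after normalization and as deposited. S79676_s_at read 38.9 (carcinoid), 48.6 (16 weeks) and 20.5 (8 weeks). It was 2.37-fold higher at 16 weeks than at 8 weeks (3.06-fold as deposited), and 1.89-fold higher in the carcinoid than at 8 weeks (2.62-fold as deposited), so that the carcinoid passed 2-fold only without normalization. Carcinoid and 16 weeks differed by 1.25-fold, the carcinoid being lower. The carcinoid and 8-week values of S79676_s_at lay under the highest no-target control of their own array. With the floor at 30.0, its 8-week value fell under the floor and the difference of 16 against 8 weeks became a bound of 0.70 on the log2 scale. The other Casp1 probe sets did not follow this order: U14647_g_at read 8.77 (carcinoid), 1.53 (16 weeks) and 19.6 (8 weeks), with both the carcinoid and the 16-week value at least 1.58-fold below the 8-week value, and U14647_at stayed at 3.77, 2.0 and 4.93. Leukocytes are a known source of Casp1, and of 21 leukocyte and MHC class II genes with a probe set, 11, 11 and 17 reached the floor on the carcinoid, 16-week and 8-week arrays. Their summed normalized intensity, over the brightest probe set of each gene, was 290 (carcinoid), 364 (16 weeks) and 595 (8 weeks), and every one of the 21 reached the floor on some array. S79676_s_at was lowest on the 8-week array, where this sum was highest, and U14647_g_at was highest there. The part of leukocyte RNA in these values was not tested.

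**Figure D3:**
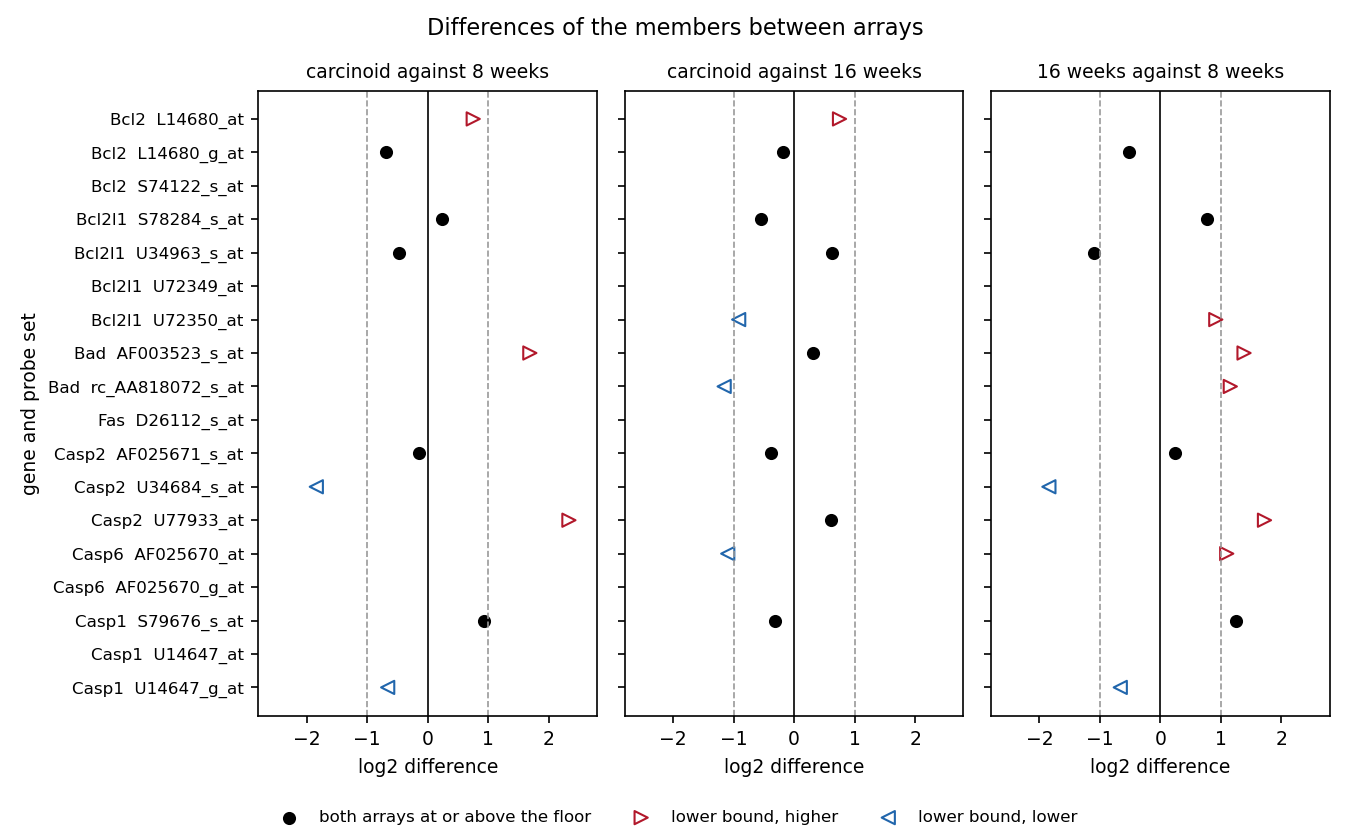
Log2 difference (array named first over array named second) of each of the 18 rat probe sets in the 3 comparisons. Filled circles mark probe sets at or above the floor on both arrays, open triangles mark lower bounds on the size pointing in their direction, probe sets under the floor on both arrays have no symbol, and dashed lines mark 2-fold. Casp2 has triangles on both sides of 0 against 8 weeks, and the filled circles past 2-fold are those of Bcl2l1 (-1.11) and Casp1 (1.24) for 16 against 8 weeks.

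Across the members, 16 against 8 weeks gave 1 measured difference of at least 2-fold in each direction among 5 probe sets measured on both arrays. Of all 3164 non-control probe sets with both values at the floor or above, 10.8% passed 2-fold upwards and 9.96% downwards. Lower bounds of at least 2-fold were found for 4 of 18 probe sets in the higher direction (Bad on both of its probe sets, Casp2 and Casp6) and for 1 in the lower direction (Casp2), against 4.94% and 4.71% of all 8740 non-control probe sets. For the no-target controls, 2 of 38 had such a bound in each direction. The median log2 difference of the 5 measured members was 0.25, against -0.01 over all measured probe sets. With values raised to the floor, which sets 6 of the 18 members to 0, both medians were 0.00. Without normalization, 2 member probe sets (Bcl2l1 and Casp1) were higher and 0 lower, beside 595 higher and 120 lower among all non-control probe sets.

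Against 8 weeks, the carcinoid array had no member at least 2-fold apart among 5 measured on both arrays, where 11.7% of all such probe sets were higher and 11.4% lower. Bounds of at least 2-fold were found for 2 of 18 probe sets in the higher direction (Bad and Casp2) and 1 in the lower (Casp2), against 5.21% and 4.92% of all. Against 16 weeks, the carcinoid array had no member at least 2-fold apart among 7 measured on both, where the shares of all were 7.01% higher and 6.28% lower. No bound of at least 2-fold was higher and 2 were lower (Bad and Casp6), against 3.18% and 3.65% of all. The median log2 difference of the measured members was -0.14 for carcinoid against 8 weeks and -0.18 for carcinoid against 16 weeks, against -0.04 and 0.01 over all measured probe sets. The 7 measured differences between carcinoid and 16 weeks lay between -0.55 and 0.63 on the log2 scale. As deposited, 1 member (Casp1) was at least 2-fold higher and 0 lower in carcinoid against 8 weeks, beside 769 higher and 110 lower among all, and in carcinoid against 16 weeks the members had 0 in either direction, beside 332 and 204. The comparisons against 8 weeks share the 8-week array, so their values are not separate observations.

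With 1 array per group, these arrays give no error for a difference between groups. How far probe sets of a gene disagree was computed instead, and it leaves out variation between animals and preparations. For each gene, the 2 brightest probe sets measured on both arrays were paired. The spread per probe set was the root mean square difference of these pairs, on the log2 scale, divided by the square root of 2. It came to 0.82 in 395 genes for carcinoid against 8 weeks and 0.62 in 457 genes for carcinoid against 16 weeks. For 16 against 8 weeks it was 0.80 in 410 genes. In that order of comparisons, 39.5%, 25.6% and 34.4% of the pairs lay over 1 apart. Bcl2l1 had 2 probe sets measured on both arrays in every comparison. After normalization they lay on opposite sides of 0 each time, though not in carcinoid against 8 weeks as deposited. Casp2 had 2 in carcinoid against 16 weeks only, also on opposite sides of 0, at -0.39 (AF025671_s_at) and 0.61 (U77933_at). Counting bounds too, probe sets of 1 gene pointed in opposite directions for Bcl2, Bcl2l1, Casp1 and Casp2 in the comparison of carcinoid against 8 weeks, and for Bcl2, Bcl2l1, Bad and Casp2 in that of carcinoid against 16 weeks. For 16 against 8 weeks this held for Bcl2l1, Casp1 and Casp2. A 2-fold difference is 1 on the log2 scale, above the spread of 0.80, so any difference counted as 2-fold exceeds that spread by definition. That spread is per probe set, and the root mean square difference between 2 probe sets of a gene is larger by the square root of 2. The measured 2-fold differences of Casp1 (1.24) and Bcl2l1 (-1.11) each had another probe set of the same gene on the other side of 0. The 8-week array, under the floor for both Bad probe sets and U77933_at but high for U34684_s_at, is also the array with the highest ratio of 3′ to 5′ control signal, whose part in these values was not tested. Markers of fibroblasts and endothelium moved with that array too. Of 13 such genes, 12 had a probe set, 8, 8 and 9 of them reached the floor on the carcinoid, 16-week and 8-week arrays, and Sele and Vwf reached it nowhere. Their summed normalized intensity was 522 (carcinoid), 633 (16 weeks) and 1610 (8 weeks), and 632, 677 and 992 as deposited. The sum over 4 chief cell genes was 4077 (carcinoid), 4993 (16 weeks) and 6100 (8 weeks) after normalization, but 4236, 6279 and 4029 as deposited. For ECL and neuroendocrine markers it was 236, 373 and 337 in that order, and 266, 399 and 263 as deposited. Parietal cell markers summed to 1952, 2600 and 2643, and to 2548, 2798 and 1669 as deposited. Mucous cell markers were highest in the carcinoid, at 1588, 1229 and 1376, and at 2052, 1299 and 860 as deposited. The part of these cells in the differences against 8 weeks was not tested.

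Genes whose pattern over the 3 arrays was closest to that of Casp1 (S79676_s_at, the member with the widest range among the brightest probe sets measured everywhere) were sought among 1766 other genes measured on all arrays. The nearest were Nrg1, a ligand of ErbB receptors, with 28.2 (carcinoid), 34.2 (16 weeks) and 14.8 (8 weeks), the receptor Gpr19 with 44.8, 57.9 and 25.03, and Acaa2, a mitochondrial enzyme of fatty acid oxidation, with 29.8, 35.7 and 14.7. Their distances, in log2 units over 3 arrays after centring each gene, were 0.03, 0.06 and 0.07. With only 3 arrays and 1766 genes searched, close neighbours are likely for any pattern. Whether these genes share regulation with Casp1 was not tested.

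Other genes of cell death came from a list of 84 genes, of which 40 had 70 rat probe sets. In 16 against 8 weeks, 28 probe sets had both values, and 3 of them passed 2-fold upwards and 5 downwards, where the shares of all measured probe sets were 10.8% and 9.96%. In carcinoid against 8 weeks the counts were 2 higher and 9 lower of 30, beside 11.7% and 11.4% of all. In carcinoid against 16 weeks they were 2 higher and 3 lower of 29, beside 7.01% and 6.28% of all. The median log2 difference of the measured probe sets in the list was -0.33 for 16 against 8 weeks, -0.24 for carcinoid against 8 weeks and -0.18 for carcinoid against 16 weeks. Over all measured probe sets these medians were -0.01, -0.04 and 0.01. As deposited, the split for carcinoid against 8 weeks was 6 higher and 2 lower, and for 16 against 8 weeks 6 higher and 3 lower, and all probe sets together had a median log2 difference of 0.45 and 0.41.

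Relatives of Bcl2 outside the 9 genes covered 8 genes with 15 probe sets, and in each comparison 6 of the 15 were under the floor on both arrays. Bnip3l, a mitochondrial BH3-like protein of mitophagy, read 131 (carcinoid), 84.7 (16 weeks) and 42.8 (8 weeks), and was 3.07-fold higher in the carcinoid than at 8 weeks. Bcl2l2, the survival protein Bcl-w, read 23.6 (carcinoid), 30.4 (16 weeks) and 56.6 (8 weeks), and was 2.4-fold lower in the carcinoid than at 8 weeks. Bok, a Bax-like pore-former, read 86.6, 146 and 184 in that order on AF027954_g_at and was 2.12-fold lower in the carcinoid than at 8 weeks, whereas AF027954_at stayed under the floor. Bcl2l11, which encodes the BH3-only protein Bim, read 48.2 (carcinoid), 35.1 (16 weeks) and 86.02 (8 weeks) on AF065433_at, and was 2.45-fold lower at 16 weeks than at 8 weeks. Its probe set AF065432_s_at was at least 2.54-fold lower in the carcinoid, and at 16 weeks, than at 8 weeks. The other Bcl2l11 probe sets did not share that order: AF065431_s_at reached the floor in the carcinoid only, with 14.7 (carcinoid), 9.33 (16 weeks) and 5.07 (8 weeks), and AF065433_g_at reached it nowhere. Hrk, another BH3-only gene, was at least 2.11-fold lower in the carcinoid than at 16 weeks (2.29-fold as deposited) and at least 2.01-fold lower than at 8 weeks (1.66-fold as deposited) on 1 of its 4 probe sets, and the other 3 stayed under the floor. As deposited, Bnip3l was 4.86-fold higher in the carcinoid than at 8 weeks. Bok was then 1.22-fold and Bcl2l2 1.62-fold lower in the carcinoid than at 8 weeks, Bcl2l11 (AF065433_at) was 1.66-fold lower at 16 weeks than at 8 weeks, and Bok at 16 weeks lay above 8 weeks, by 0.34 on the log2 scale.

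Caspase substrates and other effectors in the list were 7 genes with 11 probe sets. Il18, whose product Casp1 cleaves, read 17.5 (carcinoid), 11.7 (16 weeks) and 28.7 (8 weeks) on AJ222813_s_at, and its 16-week value was at least 2.31-fold below its 8-week value, though 1.86-fold below it as deposited. U77777_s_at, the second Il18 probe set, stayed under the floor. Il1b, cleaved by the same enzyme, reached the floor on 1 array on each of 2 probe sets, at 20.4 on the carcinoid array (E01884cds_s_at) and 14.4 on the 8-week array (M98820_at), and nowhere on the last. Parp1, a DNA repair enzyme that executioner caspases cut, read 36.3 (carcinoid), 38.5 (16 weeks) and 21.5 (8 weeks) on U94340_at, and 14.3, 4.2 and 34.1 on rc_AA964849_at, in opposite directions. Diablo, an inhibitor of the IAP proteins, reached the floor at 16 weeks only, at 25.6, and was at least 2.06-fold lower in the carcinoid than at 16 weeks.

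**Figure D4:**
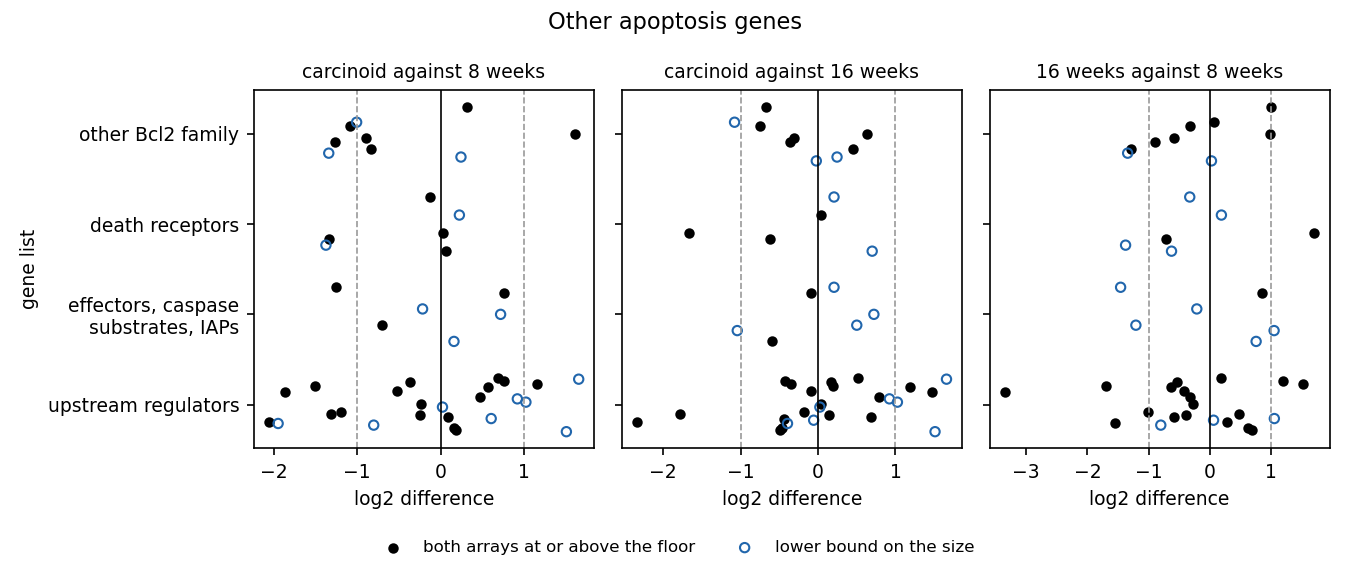
Log2 differences of the 70 probe sets of other apoptosis genes in 4 lists, for carcinoid against 8 weeks, carcinoid against 16 weeks and 16 against 8 weeks. Filled points are measured on both arrays, open points are lower bounds on the size, and dashed lines mark 2-fold. Points of every list lie on both sides of 0 in each comparison.

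Upstream regulators, 17 genes with 34 probe sets, held the widest differences of the list. Nfkbia, the NF-kappaB inhibitor, read 36.4 (carcinoid), 13.1 (16 weeks) and 133 (8 weeks) on X63594cds_g_at, and its second probe set was under the floor. Clu, a secreted chaperone with survival functions, read 19.2 (carcinoid), 96.9 (16 weeks) and 79.7 (8 weeks), and was 5.05-fold lower in the carcinoid than at 16 weeks and 4.16-fold lower than at 8 weeks (2.73-fold as deposited). Cdkn1a, a target of p53 that halts the cell cycle, read 8.4, 16.3 and 47.9 on U24174_at and was 2.94-fold lower at 16 weeks than at 8 weeks. Among the 14-3-3 proteins, which hold phosphorylated Bad in the cytosol, Ywhab was 2.85-fold lower in the carcinoid and 3.25-fold lower at 16 weeks than at 8 weeks. As deposited these folds were 1.97 and 2.39. Ywhaz was 2.29-fold higher at 16 weeks than at 8 weeks on D30740_at and 1.13-fold higher on rc_AI180424_at. A further Ywhaz probe set, D30740_g_at, was under the floor on both loxtidine arrays. It was at least 3.16-fold higher in the carcinoid than on either. Ywhah was 2.87-fold higher at 16 weeks than at 8 weeks on D17445_at and 1.45-fold lower on D17445_g_at, whose log2 difference was 0.22 as deposited. Akt1, a kinase that phosphorylates Bad, read 90.8 (carcinoid), 128 (16 weeks) and 79.7 (8 weeks) on rc_AA799664_at, under 2-fold in every comparison, and on D30040_at it reached the floor in the carcinoid only, at least 2.85-fold higher than at 8 weeks.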

How the data were processed

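RNA of 3 samples was hybridised to Affymetrix rat arrays, 1 per group, with groups taken from the sample descriptions. The deposited table holds 1 linear intensity per probe set and array, made by the authors; no algorithm or scaling is given in the sources used here. With so few arrays, precision is limited throughout. Sequence differences between Mastomys and rat can dim a probe set, so each was compared only with itself.

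Symbols came from the platform annotation: of 8740 non-control probe sets, 7006 had 1, 308 several and 1426 none. The 2% trimmed means differed by over 5%, so arrays were quantile-normalized (numpy 2.4.6, pandas 2.3.3, Python 3.11.15; 59 controls were placed by interpolation). This hides any shift common to most transcripts. Values under the floor (12.4) were raised to it before log2. Steps were tested on simulated data, with folds planted only in brighter probe sets and noise smaller than the spread between real probe sets. Recovery near the floor was not tested. No significance test was run.

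Members, lists and tests were chosen with earlier results of these data known. Named genes were all member probe sets and, from the wider list, probe sets at least 2-fold apart; some of the latter are not printed, and Il1b was added after its values were seen. The comparison with no-target controls was also added then.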

Additional observations from a re-analysis of the deposited data

How the results depend on the processing

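Counts of at least 2-fold differences rest on few probe sets near background and move with the floor. For 16 against 8 weeks the 2 member differences became 6 with the floor at the 25th percentile (4.2), 0 at the 75th (30.0), 5 with the floor added to each value and no filter, and 1 with the median of a gene's probe sets. For carcinoid against 8 weeks the member count of 0 became 2 at the lower floor, 4 without a filter and 1 as deposited. For carcinoid against 16 weeks it became 4 without a filter. The wider list had 8, 11 and 5 (16 against 8 weeks, carcinoid against 8 weeks, carcinoid against 16 weeks). These became 20, 22 and 14 at the lower floor and 2, 5 and 1 at the higher one, where fewer or more values were set to the floor, and 5, 6 and 3 with the median of a gene's probe sets. Without a filter the last became 10, and with 1 probe set per gene the first became 5. Scaling to a common median moved none of these 6 counts by over 1.5 times. Of 150 recomputed log2 differences of single member probe sets, 131 moved by less than the spread between probe sets, 19 moved by more, and 0 at or past 2-fold changed sign. The lower floor cannot change a difference measured on both arrays, so these stayed the same by construction. Probe sets under the higher floor on both arrays had no recomputed value and were left out. No replicate could be left out, and no paired analysis was possible because each group has 1 array.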
